A study of Homo sapiens with 8 samples.

Results

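The 34 histone genes of the table were examined, of 9245 measured RefSeq mRNA entries. They were taken by symbol alone: 24 replication-dependent genes, whose symbols begin with HIST, and 10 variant genes of the H1F, H2AF and H3F series. The samples were SK-BR-3 cells, a human breast cancer line that carries extra copies of ERBB2, in which the microRNA genes mir-141 and mir-200c had been knocked out with TALENs, nucleases built to cut DNA at a given site. The 4 genotypes were the wild type, cells without mir-141, cells without mir-200c and cells without both, with 1 library of each in 2 experimental sets. The knockout libraries were clones 23, 11 and 55 in set 1 and clones 10, 29 and 61 in set 2, in the order mir-141, mir-200c and double. Each knockout library was thus a different clone, and clone, genotype and set cannot be told apart within 1 set. All groups share the SK-BR-3 background, and no treatment was labelled.

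Histones are the proteins around which DNA is wound: 2 copies each of H2A, H2B, H3 and H4 form the core of the nucleosome, and H1 binds the linker between cores. Replication-dependent histone genes lie in clusters, are expressed mainly in S phase and make mRNAs that usually end in a conserved stem-loop, bound by the protein SLBP, in place of a poly(A) tail. Variant histone genes lie apart, have introns in several cases, are mostly expressed through the cell cycle and usually make mRNAs with a poly(A) tail. The libraries were made from mRNA held on oligo(dT) beads, which bind poly(A), so this selection bears on which replication-dependent transcripts are read.

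The values were log2 ratios, clone over wild type within a set, so 0 is no difference and 1 is a 2-fold higher level. Wherever 3 ratios follow each other they are those of the mir-141, the mir-200c and the double knockout, in this order. Levels per library were not used here. In set 1 each genotype had 1 library and the same wild type was the divisor for all 3 clones, so the ratios of set 1 carry no replicate error and are given with no test. Across all 9245 rows the Pearson correlations between columns were 0.502 to 0.709 for 6 pairs of the same set, which share a wild type, and −0.00224 to 0.0105 for 9 pairs of different sets. Set 1 is therefore described first, and the ratios of set 2 are given as listed beside each symbol. Whether the ratios of set 2 stand beside the right genes was not tested here. Of 10 markers of luminal breast epithelium 9 were measured, with ratios from −0.30 to 0.31 in the clones of set 1: STARD3 (−0.17, −0.30 and −0.25) and ERBB2 (−0.18, −0.14 and −0.14) were lowest by their mean, and KRT18 (0.16, 0.24 and 0.21) and CLDN4 (−0.00, 0.31 and 0.12) highest. Without levels the cell type could not be checked.

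The mature microRNAs removed from the cells are shown first, with the seed (bases 2 to 8, counted from the 5′ end), which pairs with target mRNAs, in capitals. The sequences are RefSeq's on GRCh38.p14, from chromosome 12, plus strand: hsa-miR-141-3p at chr12:6964155-6964176 and hsa-miR-200c-3p at chr12:6963742-6963764.
hsa-miR-141-3p: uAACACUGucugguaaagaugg
hsa-miR-200c-3p: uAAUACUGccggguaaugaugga
The complements of the seeds, CAGTGTT and CAGTATT, were searched in the annotated 3′ UTR of each histone gene (GENCODE release 29, GRCh38). Matches were found in 4 of the 34 genes. Of 19111 coding genes with an annotated 3′ UTR, 18.1% held the mir-141 match and 16% the mir-200c match in their longest transcript, at a median UTR length of 1039 bases against 559 in the 26 histone genes that have one. For mir-141 there was 1 match in H2AFZ, 1 in HIST1H3H and 2 in H2AFV, and for mir-200c there was 1 in HIST1H2AC. In 8 of the 24 replication-dependent genes the annotated transcript stopped at the end of the coding sequence, so no 3′ UTR could be searched. The matches are shown with 8 bases on each side, the match in capitals.
H2AFZ, mir-141 (chr4:99948394-99948416, minus strand): cagctgtcCAGTGTTggtgattc
HIST1H3H, mir-141 (chr6:27810938-27810960, plus strand): ttcctaagCAGTGTTaagttttc
H2AFV, mir-141, first match (chr7:44829844-44829866, minus strand): tgttgctgCAGTGTTggtccaca
H2AFV, mir-141, second match (chr7:44829088-44829110, minus strand): tccctgccCAGTGTTatgcctat
HIST1H2AC, mir-200c (chr6:26138404-26138426, plus strand): tatctgccCAGTATTcattcctg
H2AFZ, which encodes the variant H2A.Z, had log2 ratios of 0.28, 0.11 and 0.11 in set 1. H2AFV, which encodes a second H2A.Z protein, had 0.02, −0.08 and −0.10, and HIST1H3H, an H3 gene, had 0.58, −0.30 and −0.33. In the mir-141 knockout of set 1 all 3 genes with a mir-141 match were above 0, as were 48.1% of all rows, and in the double knockout, which also lacks mir-141, 1 of the 3 was (46.3% of all rows). In the mir-141 clone of set 2, as listed, 2 of the 3 were above 0, against 45.8% of all rows. HIST1H2AC, an H2A gene and the carrier of the mir-200c match, had 0.20, −0.47 and 0.23 in set 1, and set 2 listed 0.13, 0.18 and 0.31. It was thus below 0 in the mir-200c clone of set 1 and above 0 in that of set 2.

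The 3′ stem-loop was looked for as the 16-base histone stem-loop core with up to 2 mismatches, its first and last 2 bases kept, in the sense strand of the annotated 3′ UTR. It was found in 14 of the 24 replication-dependent genes and in 0 of the 10 variant genes. Only 16 of the 24 had an annotated 3′ UTR, and the other 8 could not be searched. HIST2H2BF and HIST1H2BD had no loop in the 3′ UTR searched, but another annotated transcript of each held it. Among 57133 annotated genes, coding or not, 61 (0.107%) held it anywhere in their longest transcript. That search was wider than the one in the histone genes, which was limited to the 3′ UTR. Loops with and without mismatches, in capitals with 5 bases on each side, are given for genes with the lowest ratios described further on and for the forms that differ among the genes.
HIST1H2BH (chr6:26252050-26252075, plus strand, 0 mismatches): ccaaaGGCTCTTTTCAGAGCCactta
HIST1H2BG (chr6:26216213-26216238, minus strand, 0 mismatches): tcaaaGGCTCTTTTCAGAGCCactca
HIST1H3G (chr6:26270918-26270943, minus strand, 1 mismatch): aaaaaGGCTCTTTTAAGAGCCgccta
HIST1H2AG (chr6:27133510-27133535, plus strand, 1 mismatch): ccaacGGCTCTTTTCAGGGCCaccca
HIST1H4H (chr6:26285126-26285151, minus strand, 2 mismatches): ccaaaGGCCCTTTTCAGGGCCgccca
HIST1H2BC (chr6:26123467-26123492, minus strand, 1 mismatch): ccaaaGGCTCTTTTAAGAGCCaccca
Several annotated transcripts ran on past the loop. In HIST1H2BH 1640 bases follow it, in HIST1H3G 1518 and in HIST1H2AG 1761, and these transcripts carry AATAAA or ATTAAA, the letters of the polyadenylation signal, in their last 60 bases. In HIST1H4H 18 bases follow it. Such a signal was present at the end of 8 of the 24 replication-dependent transcripts. Those 8 had a median log2 ratio of −0.43 in clone 11, the mir-200c knockout of set 1, and that of the 7 with a loop and no signal was −0.38. The 8 genes annotated only to the end of the coding sequence had a median of −0.77.

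In set 1 the replication-dependent genes were, by their median, lower in the mir-200c knockout than in the wild type and than in either other clone, and the median of the variant genes was near 0 in all 3 clones. In such bulk samples fewer cells of a type (here, in S phase) and less RNA per cell cannot be told apart. The median log2 ratio of the 24 replication-dependent genes was 0.04 without mir-141, −0.46 without mir-200c and 0.11 without both, beside −0.01, −0.02 and −0.03 for all rows. The 10 variant genes had medians of 0.07, 0.06 and 0.01. In the mir-200c knockout 18 of the 24 lay below 0, against 52.0% of all rows. In the mir-141 knockout 9 did (51.9%) and in the double knockout 8 (53.7%). Of the 24, 10 were lower by more than 1.5-fold in the mir-200c knockout, against 5.3% of all rows. In that clone 1 was higher by that much, against 6.78%. Beyond 1.5-fold in either direction lay 7, 11 and 7, against 4.18%, 12.1% and 8.79% of all rows, and beyond a log2 ratio of 1 lay 3, 7 and 4, against 1.15%, 2.76% and 2.27%. Of the 7 in the mir-200c knockout, 6 were below −1 (1.06% of all rows) and 1 above 1 (1.7%). Without the 5 genes that share most of their sequence with another gene, 3 of 19 were beyond 1 in that clone. In the mir-141 knockout 2 were above 1 (0.584% of all rows) and 1 was below −1 (0.562%). In the double knockout 2 were above 1 (1.53%) and 2 were below −1 (0.746%). Of the 10 variant genes 1 was beyond 1 in the mir-200c knockout and 0 were in the other clones. The replication-dependent genes also spread more widely than other rows: the median size of their ratio was 0.27, 0.50 and 0.31 in the 3 clones, against 0.13, 0.23 and 0.19 over all rows. Only 3 of 10 fibroblast and 4 of 10 blood cell markers were measured, with medians of −0.11, 0.69 and −0.09 and of −0.05, 0.17 and −0.02. The fibroblast collagen genes were COL1A1 (−0.11, −0.41 and −0.15), COL5A1 (−0.29, 1.29 and −0.09) and COL5A2 (0.91, 0.69 and 1.28). The blood cell genes were CORO1A (−0.01, −0.54 and −0.48), CD68 (0.52, −0.48 and 0.40), LCP1 (−0.13, 1.05 and −0.44) and CSF1R (−0.08, 0.83 and 0.89). Which markers were absent could not be read from ratios, and their part in these results was not tested.

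**Figure D1:**
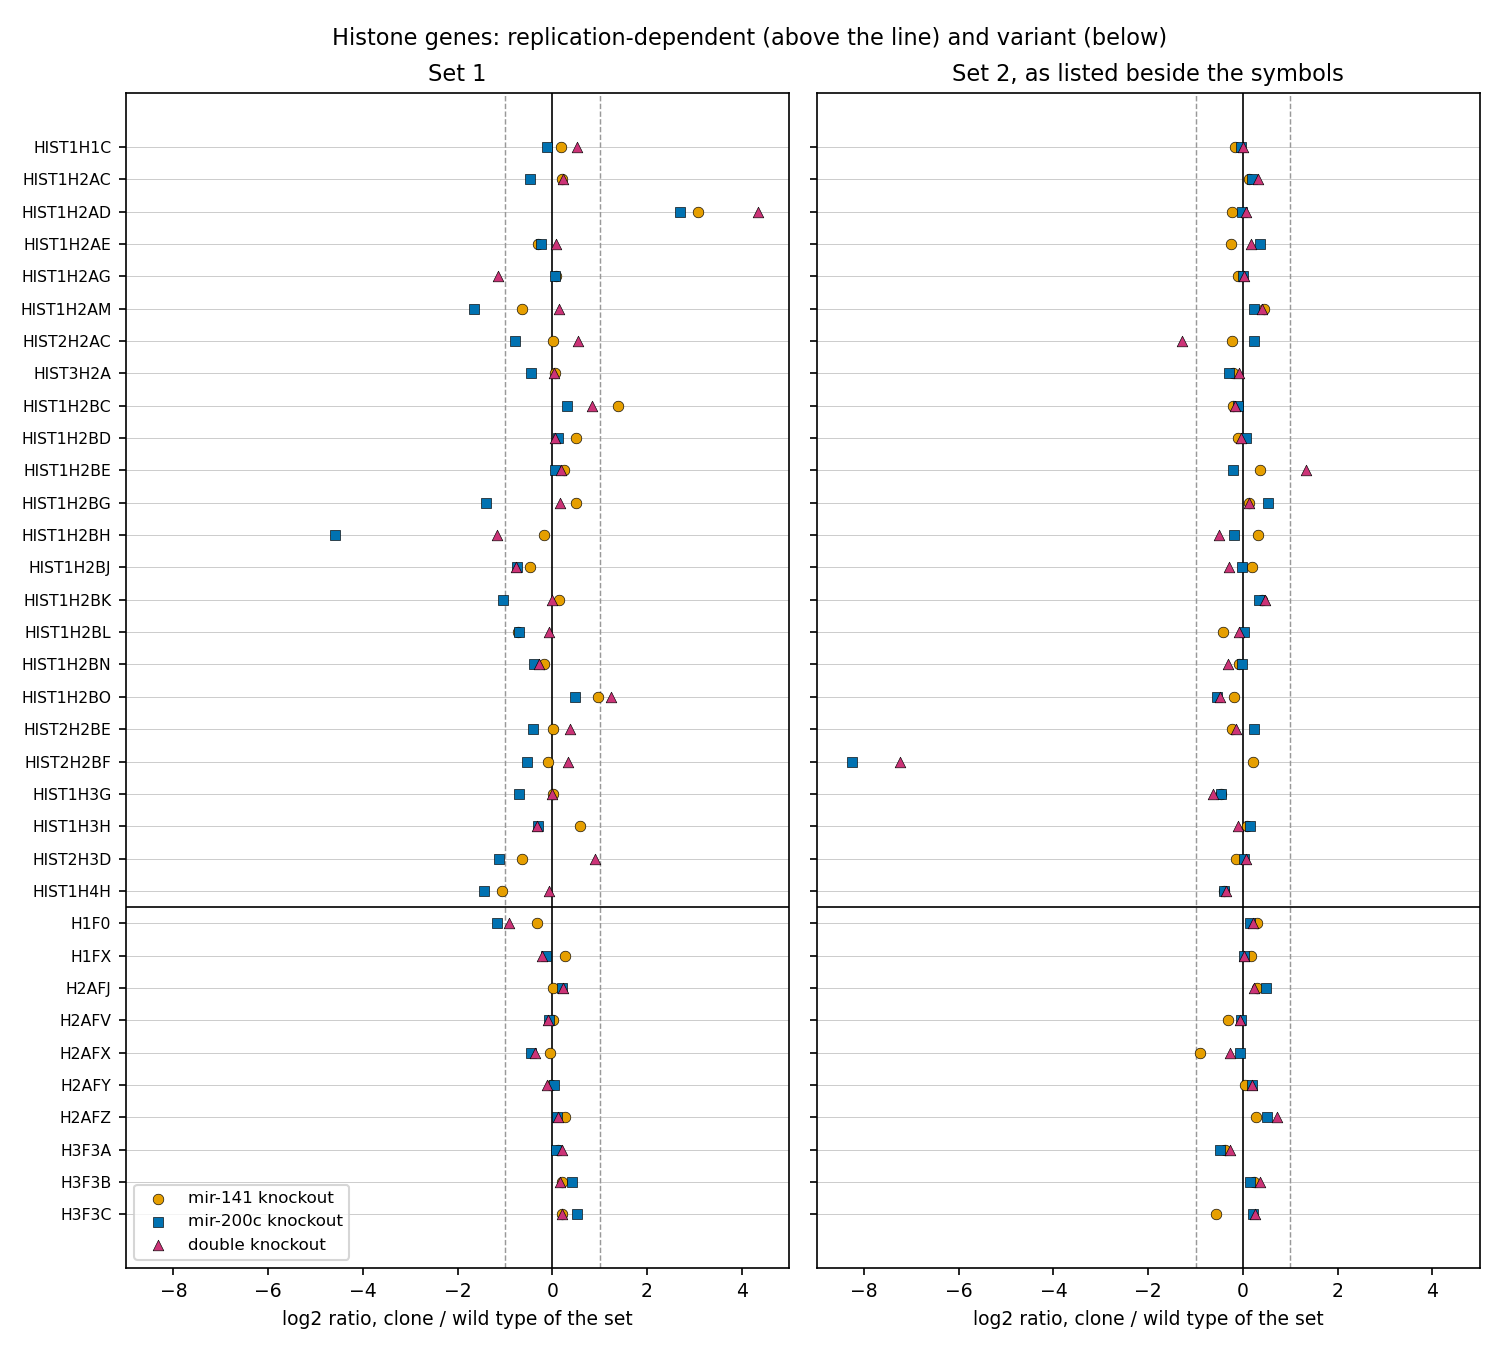
Log2 ratio of each of the 34 histone genes (rows) in the 3 knockout clones of each set, in set 1 (left) and as listed in set 2 (right); dashed lines mark a log2 ratio of −1 and 1. In set 1, HIST1H2AD lies far right in all 3 clones and HIST1H2BH far left in the mir-200c knockout, and in set 2 HIST2H2BF lies far left in the mir-200c and double knockout.

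The difference between 2 clones of set 1 does not contain the wild type, since it cancels. Of the 24 replication-dependent genes, 22 were lower in the mir-200c knockout than in the mir-141 knockout, with a median difference of −0.46, where 52.4% of all rows were lower and their median was −0.02. Between the double and the mir-200c knockout, 20 of the 24 were higher in the double knockout, with a median difference of 0.70, against 50% of all rows. Between the double and the mir-141 knockout, 12 were higher and 12 lower, with a median of 0.00 (46.7% of all rows were higher). Each pair of these differences has a clone in common, so they are not independent. The variant genes had medians of −0.07, −0.01 and −0.10 in the same 3 differences, in that order. The low median was thus that of clone 11, the mir-200c knockout of set 1, and not that of the double knockout, which also lacks mir-200c. Single genes such as HIST1H2BH and HIST1H2BJ were low in the double knockout too. With 1 clone of each genotype, clone and genotype cannot be told apart here.

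**Figure D2:**
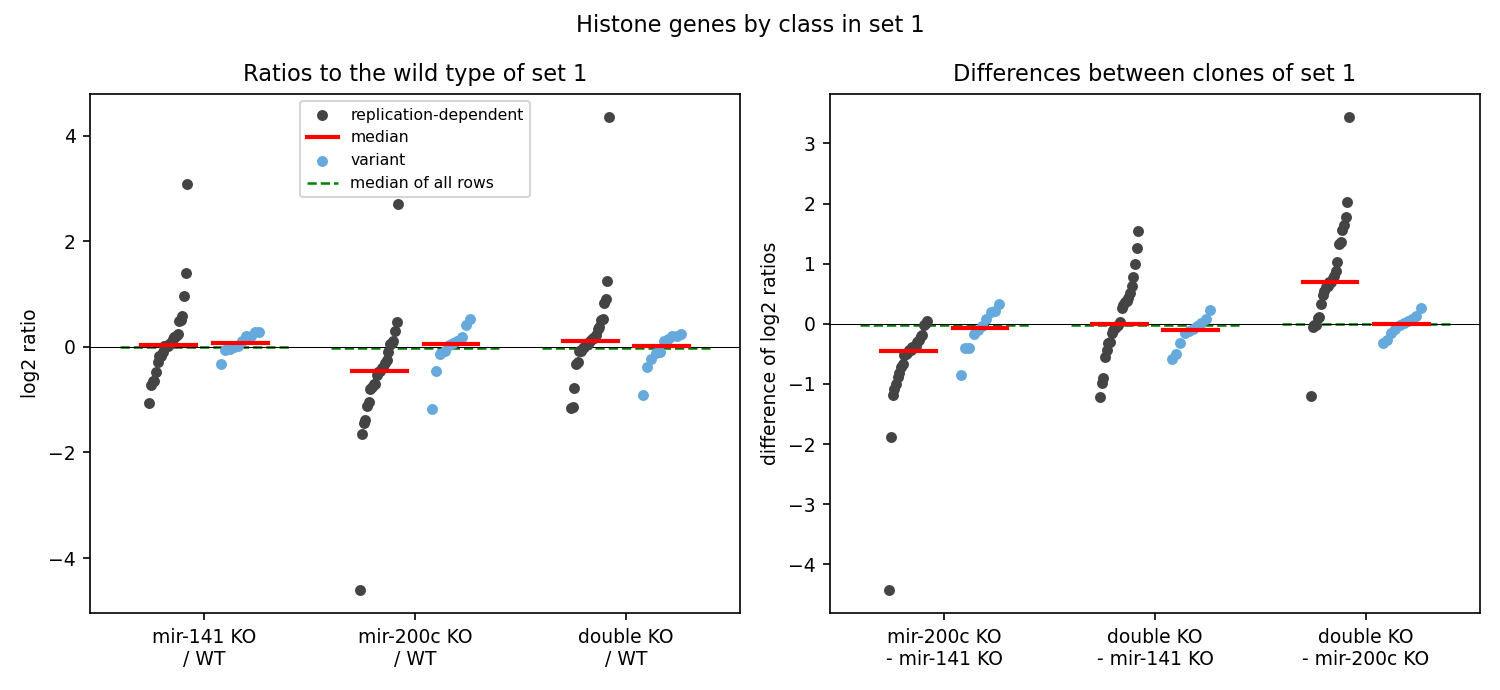
Left: log2 ratios to the wild type of set 1 (y axis) of the replication-dependent and variant histone genes in each knockout (KO) clone. Right: differences of log2 ratios between clones. Each point is a gene, red bars are class medians and dashed green lines are medians of all rows; the replication-dependent median is −0.46 in the mir-200c knockout and 0.70 for the double minus the mir-200c knockout.

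Among the H2B genes, the largest family with 12 of 18 annotated replication-dependent members measured, the extreme value of set 1 was that of HIST1H2BH (chr6:26251651-26253710). Its log2 ratios were −0.18, −4.60 and −1.16 in set 1, and set 2 listed 0.33, −0.19 and −0.51. The mir-200c value is a 24.2-fold lower level, the third largest ratio in size among all rows of that column. Histone genes can be near-identical, so each annotated transcript was split into all its stretches of 50 bases, called words here, and these were looked for in transcripts of other genes. None of the words of HIST1H2BH occurred in another gene. HIST1H2BG had 0.49, −1.39 and 0.17 in set 1, and set 2 listed 0.12, 0.53 and 0.14, and HIST1H2BK had 0.14, −1.04 and −0.01 in set 1, and set 2 listed 0.39, 0.34 and 0.46. HIST1H2BG was low in the mir-200c knockout alone and has no shared words. Of the words of HIST1H2BK, 74.1% were shared, most of them with H2BFS, so its value is uncertain. HIST1H2BJ was low in all 3 clones of set 1 (−0.47, −0.75 and −0.77), as was HIST1H2BL in 2 of them (−0.71, −0.70 and −0.08).

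Other H2B genes of set 1 lay on the opposite side. HIST1H2BC had 1.40, 0.30 and 0.84 in set 1, and set 2 listed −0.21, −0.10 and −0.17. HIST1H2BO had 0.97, 0.47 and 1.24 in set 1, and set 2 listed −0.18, −0.54 and −0.49. Both were above 0 in every clone of set 1, lowest in the mir-200c knockout, and below 0 in every clone of set 2. The ratios of HIST1H2BD were 0.50, 0.11 and 0.06 and those of HIST1H2BE 0.25, 0.07 and 0.18 in set 1. HIST1H2BN had −0.18, −0.38 and −0.29, HIST2H2BE had 0.02, −0.41 and 0.38, and HIST2H2BF had −0.09, −0.53 and 0.34.

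HIST2H2BF (chr1:149782689-149812373) held the largest ratios listed for any gene in 2 columns of set 2, where it was listed at 0.22, −8.25 and −7.25. In set 1 its ratios were within 1.5-fold of the wild type. Of its 50-base words, 59.5% were shared, 30.9% with HIST2H2BB, and its gene model overlaps those of AC243772.2 and FCGR1A.

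Of the 7 H2A genes measured among 17 annotated replication-dependent ones, HIST1H2AD (chr6:26198851-26199243) stood highest, with 3.09, 2.70 and 4.35 in set 1, and set 2 listed −0.24, −0.03 and 0.06. The ratios of set 1 are 8.49-, 6.5- and 20.4-fold higher levels on a linear scale, with ranks 8, 10 and 4 by size among all rows of their columns. The 3 clones of set 1, with their common wild type, were all high, and the ratios listed in set 2 were near 0. Of the 50-base words of its 393-base transcript, 98.0% were also in transcripts of AL031777.3, a gene that overlaps it on the same strand. Reads of the 2 genes could thus not be told apart over those stretches. HIST1H2AM had −0.65, −1.64 and 0.14 in set 1, and set 2 listed 0.44, 0.23 and 0.40, and 86.3% of its words lay in HIST1H3J, which overlaps it on the same strand.

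The other H2A genes have few words in common with other genes, apart from HIST2H2AC, which shares 30.5% with HIST2H2AA3. HIST1H2AG had 0.08, 0.05 and −1.14 in set 1, and set 2 listed −0.11, 0.01 and 0.02, so it was low in the double knockout of set 1 alone. HIST2H2AC had 0.02, −0.79 and 0.54 in set 1, and set 2 listed −0.23, 0.23 and −1.29. HIST3H2A had 0.06, −0.46 and 0.03, and HIST1H2AE had −0.29, −0.25 and 0.09 in set 1.

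All 3 measured H3 genes, of 15 annotated, were below 0 in the mir-200c knockout of set 1, at a median of −0.70. HIST2H3D had −0.64, −1.12 and 0.90 in set 1, and set 2 listed −0.14, 0.01 and 0.07. It shares 80.4% of its words with other genes, 57.7% with HIST2H3DP1, and is uncertain. HIST1H3G had 0.03, −0.70 and 0.00 in set 1, and set 2 listed −0.45, −0.47 and −0.63, with no shared words. HIST1H4H, the only H4 gene measured of 15, had −1.07, −1.44 and −0.07 in set 1, and set 2 listed −0.40, −0.40 and −0.35, again with no shared words. HIST1H1C, the only replication-dependent linker histone measured of 6, had 0.19, −0.10 and 0.51 in set 1, and set 2 listed −0.16, −0.03 and −0.01. HIST1H4H was thus low in both single knockouts of set 1, and HIST1H1C stayed within 1.5-fold in every clone.

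Among the variant genes, H1F0 (chr22:37805093-37807436), which encodes the linker histone H1.0 known from quiescent and differentiated cells, had the lowest ratios of set 1. Its ratios were −0.32, −1.17 and −0.91 in set 1, and set 2 listed 0.30, 0.15 and 0.21, all below 0 in the first and all above 0 in the second. H1FX, another linker histone, had 0.28, −0.13 and −0.22 in set 1, and set 2 listed 0.17, 0.03 and 0.02. H1F0 was the only variant gene beyond 1.5-fold in set 1, in the mir-200c and the double knockout. H2AFX, whose protein is phosphorylated around DNA breaks, had −0.06, −0.45 and −0.37 in set 1, and set 2 listed −0.91, −0.06 and −0.26, and was below 0 in all 6 clones.

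The 3 variant H3 genes were above 0 in every clone of set 1. H3F3A and H3F3B encode the same H3.3 protein, which replaces H3 outside S phase. H3F3A had 0.12, 0.07 and 0.20 in set 1, and set 2 listed −0.37, −0.48 and −0.28, and H3F3B had 0.20, 0.42 and 0.16 in set 1, and set 2 listed 0.22, 0.15 and 0.37. H3F3C, an intronless relative, had 0.20, 0.53 and 0.22 in set 1, and set 2 listed −0.56, 0.21 and 0.26. H3F3B was above 0 in all 6 clones. H3F3A shares 34.8% of its words with its pseudogene H3F3AP4, and H3F3C shares 21.8% with H3F3B. H2AFV was listed at −0.32, −0.03 and −0.06 in set 2. Of the remaining H2A variants, H2AFJ had 0.01, 0.20 and 0.24 in set 1, and set 2 listed 0.31, 0.48 and 0.23, and H2AFZ was listed at 0.27, 0.50 and 0.71 in set 2. Both were above 0 in all 6 clones. The ratios of a set share a wild type, so the 6 are not independent. For these genes, H3F3B and H2AFX, the share of all rows on 1 side of 0 in all 6 clones was not counted. H2AFY, which encodes macroH2A1, stayed between −0.12 and 0.20 in the 6 clones.

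Over both sets, limma's moderated test with Benjamini-Hochberg adjustment called 0 of the 34 histone genes in any knockout, where it called 0.0% of all rows. Among all rows 2.68%, 5.4% and 6.28% had an unadjusted p under 0.05, in the order of the knockouts. Among the histone genes these were 1, 3 and 2. They were HIST1H2BL in the mir-141 knockout (−0.56 ± 0.21, mean of 2 clones ± SE of the fit). In the mir-200c knockout they were HIST1H4H (−0.92 ± 0.31), HIST1H3G (−0.58 ± 0.23) and HIST1H2BH (−2.39 ± 0.96). In the double knockout they were HIST1H2BJ (−0.54 ± 0.21) and HIST1H2AD (2.21 ± 0.87). Their limma adjusted p values were 0.998, 0.793 and 0.74 in the 3 knockouts. For each of the 6 both clones lay on the same side of 0, which picking genes by the mean of these clones favours. In set 2 HIST1H2AD was listed at only 0.06 in the double knockout and HIST1H2BH at −0.19 in the mir-200c knockout. A mean over both sets combines different genes wherever set 2 is listed beside the wrong symbols.

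Without the mir-200c clone of set 2, limma called HIST1H2BH in the mir-200c knockout (−4.41 ± 0.26, adjusted p = 0.0371), where 0.0108% of all rows, 1 gene, were called. With the lone clone of set 1, which is assumed to vary like the other groups, 9 of the 34 histone genes had an unadjusted p under 0.05, all lower, against 9.05% of all rows. Without the mir-200c clone of set 1 instead, 2 of the 34 had such a p, 1 higher and 1 lower, against 3.12% of all rows, and limma called none of the 34 at an adjusted p under 0.05 (0.0108% of all rows). The 9 without the clone of set 2 were, beside HIST1H2BH, HIST1H2BG, HIST1H4H, HIST1H2BK, HIST1H2AM, HIST1H3G, HIST1H2BL, HIST2H3D and HIST3H2A, at adjusted p values from 0.397 to 0.544 with limma.

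The promoters of the 2 genes with the most extreme ratios in set 1, HIST1H2AD and HIST1H2BH, are shown with that of HIST1H2BO, which its partner HIST1H2AM shares, from 250 bases before to 50 after the RefSeq start (GRCh38.p14). The motifs searched on both strands were the CCAAT box (letters CCAAT), the TATA box (letters TATAAA) and the octamer ATTTGCAT known from H2B promoters, none of which contains another, and matches are in capitals.
HIST1H2AD (chr6:26199244-26199543, minus strand): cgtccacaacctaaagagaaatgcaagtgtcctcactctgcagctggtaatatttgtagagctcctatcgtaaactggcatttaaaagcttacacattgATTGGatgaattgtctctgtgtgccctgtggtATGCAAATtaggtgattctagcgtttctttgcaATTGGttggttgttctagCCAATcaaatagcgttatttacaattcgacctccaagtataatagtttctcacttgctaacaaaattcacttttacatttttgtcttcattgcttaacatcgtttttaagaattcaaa
HIST1H2BH (chr6:26251364-26251663, plus strand): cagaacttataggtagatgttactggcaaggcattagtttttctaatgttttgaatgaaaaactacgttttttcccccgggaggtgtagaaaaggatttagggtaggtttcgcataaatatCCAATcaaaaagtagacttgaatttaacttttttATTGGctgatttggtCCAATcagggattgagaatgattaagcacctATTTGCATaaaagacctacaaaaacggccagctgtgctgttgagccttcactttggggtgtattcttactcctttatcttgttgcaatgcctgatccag
HIST1H2BO (chr6:27893175-27893474, plus strand): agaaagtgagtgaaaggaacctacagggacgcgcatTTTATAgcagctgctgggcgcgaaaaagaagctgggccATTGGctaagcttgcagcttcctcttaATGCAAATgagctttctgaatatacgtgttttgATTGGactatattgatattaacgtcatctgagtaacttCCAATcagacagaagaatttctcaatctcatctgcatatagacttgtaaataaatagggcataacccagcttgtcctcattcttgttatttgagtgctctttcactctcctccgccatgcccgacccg
CCAAT was present in 23 of the 24 replication-dependent promoters, TATAAA in 16 and the octamer in 15. Of 35116 promoters of the same length, 34.6%, 11.5% and 1.77% held them. Some of the 24 windows overlap in head-to-head pairs, described below. A motif in a shared stretch was counted for both partners, so the 24 promoters are not independent. Of the 8 variant promoters in the table, 6 held CCAAT, 4 TATAAA and 1 the octamer, that of H3F3B. HIST1H2AD and HIST1H2BH, with ratios at opposite ends, each held 3 CCAAT and 1 octamer and no TATAAA. The ratios of HIST1H2AD are uncertain, since 98.0% of its words are shared with AL031777.3. Whether the motifs bear on the ratios was not tested.

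Histone H2A and H2B genes often stand head to head and share the stretch between them. In 5 measured pairs the promoter windows overlapped, by 253 to 268 bases. In set 1, HIST2H2AC and HIST2H2BE were close in every clone, 0.02 and 0.02 in the mir-141 knockout, −0.79 and −0.41 in the mir-200c knockout and 0.54 and 0.38 in the double knockout. HIST1H2AM and HIST1H2BO, whose shared window is shown above, lay on opposite sides of 0 in both single knockouts. They had −0.65 against 0.97 and −1.64 against 0.47 there, and 0.14 and 1.24 in the double knockout. The values of HIST1H2AM are uncertain, since 86.3% of its words lie in HIST1H3J. HIST1H2AC had 0.20, −0.47 and 0.23 where its partner HIST1H2BC had 1.40, 0.30 and 0.84, and HIST1H2AE had −0.29, −0.25 and 0.09 where HIST1H2BG had 0.49, −1.39 and 0.17. HIST1H2AG had 0.08, 0.05 and −1.14 and HIST1H2BJ −0.47, −0.75 and −0.77. In 4 of the 5 pairs the partners therefore differed by more than 0.5 in at least 1 clone.

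By position, 19 of the replication-dependent genes lie on chromosome 6, between 26055787 and 27893843 (GRCh38), and 5 on chromosome 1. The mir-200c knockout of set 1 had a median of −0.38 for the 19 and −0.53 for the 5, and all 5 were below 0. In the double knockout all 5 on chromosome 1 were above 0, with a median of 0.38, and the 19 had a median of 0.06. The 5 other measured genes between the histone genes of chromosome 6 were at a median of 0.08 in that mir-200c knockout. Of these ZNF184, a zinc finger gene, had 1.12, 1.01 and 1.08 and HMGN4, a nucleosome-binding protein gene, 0.58, 0.58 and 0.87 in set 1. ZNF322, ABT1 and BTN2A1 stayed between −0.32 and 0.21. Of the ratios in the mir-200c knockout, 13 of the 19 histone genes of this cluster and 2 of the 5 genes between them lay below 0.

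**Figure D3:**
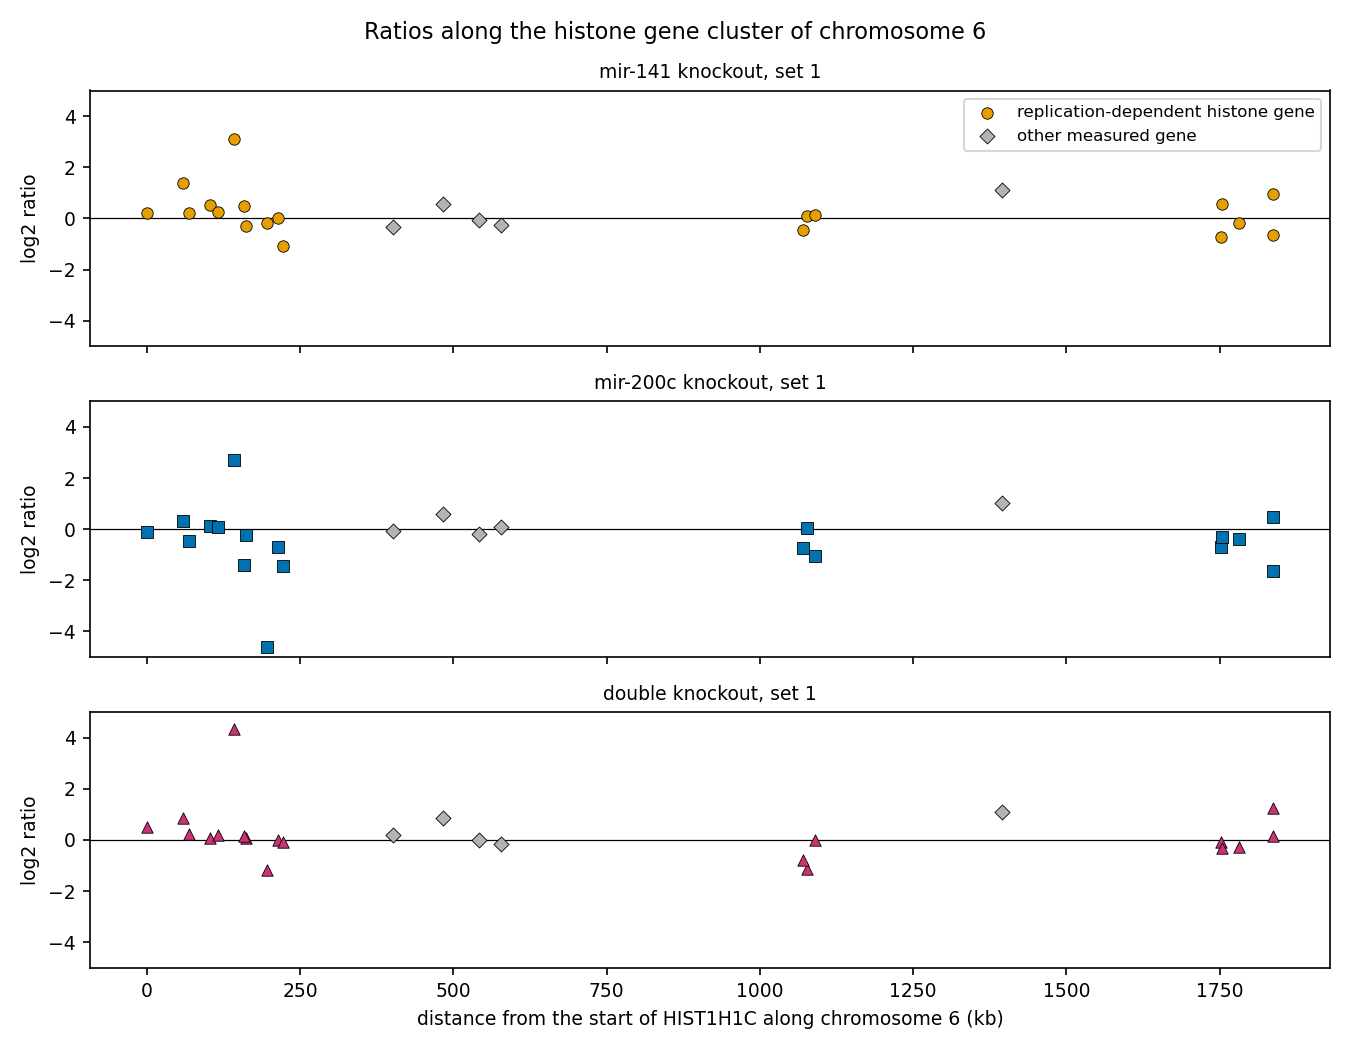
Log2 ratio in each clone of set 1 (y axis) against distance in kb from the start of HIST1H1C (x axis) for the 19 histone genes and the 5 other measured genes of the chromosome 6 cluster. In the mir-200c knockout HIST1H2AD (2.70) is the highest and HIST1H2BH (−4.60) the lowest of the 19.

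Genes that act on histone mRNA and protein were read in the same clones of set 1. Of 44 genes of histone transcription, mRNA processing and decay, 41 were measured, with medians of 0.01, −0.16 and −0.10. SLBP, which binds the stem-loop, had −0.31, −0.47 and −0.40 and SNRPD3, a shared component of the U7 and spliceosomal particles, −0.28, −0.53 and −0.39. At the other end, ERI1, a nuclease that trims the stem-loop end, had 0.21, 0.53 and 0.57 and ZCCHC6, which adds uridines to histone mRNA for decay, 0.25, 0.44 and 0.50. In the list 0 of 41 genes were beyond 1 in any clone of set 1, and 2 were beyond 1.5-fold in its mir-200c knockout, against 12.1% of all rows. In set 2, as listed, 1 was beyond 1 in the mir-141 knockout, against 2.48% of all rows. It was SLBP, listed at 1.03, 0.65 and 0.49, on the other side of 0 from its ratios in set 1.

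Of 41 histone chaperone and deposition genes 39 were measured, with medians of −0.04, −0.14 and −0.20. ASF1A, a chaperone of H3 and H4, had −0.61, −0.70 and −1.19, and INO80, a remodelling enzyme, had −0.32, −0.63 and −0.34. ATRX, which places H3.3 in heterochromatin, had 0.54, 0.90 and 0.61, and ANP32E, which removes H2A.Z, had 0.81, 0.47 and 0.49. ASF1A was the 1 gene of the 39 beyond 1 in set 1, in the double knockout, where 2.27% of all rows were. In set 2, as listed, 1 was beyond 1 in each knockout, against 2.48%, 1.77% and 3.34% of all rows. It was NCL, listed at 1.93, 1.14 and 2.21.

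S phase genes, to whose timing replication-dependent histone expression is tied, had medians of −0.01, −0.22 and −0.18 for 47 of 50 measured. In the mir-200c knockout 38 of the 47 were below 0 (52.0% of all rows) and in the double knockout 37 were (53.7%). RFC3, a clamp loader subunit, had −0.33, −0.70 and −0.53 and POLE2, a DNA polymerase subunit, 0.00, −0.33 and −0.94. CCNE1, which encodes cyclin E1, had 0.38, −0.09 and 0.15, and FEN1, a flap nuclease, 0.06, 0.22 and 0.14. Between the double and the mir-200c knockout the S phase genes had a median difference of 0.00, with 24 higher and 23 lower, while that of the replication-dependent histone genes was 0.70. In set 1 the S phase genes were therefore low, by their median, in both clones that lack mir-200c, and the histone genes in 1 of them. In set 2, as listed, the S phase medians were −0.02, −0.01 and −0.13, beside −0.03, −0.01 and −0.03 for all rows. What part the S phase genes have in the histone ratios was not tested.

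**Figure D4:**
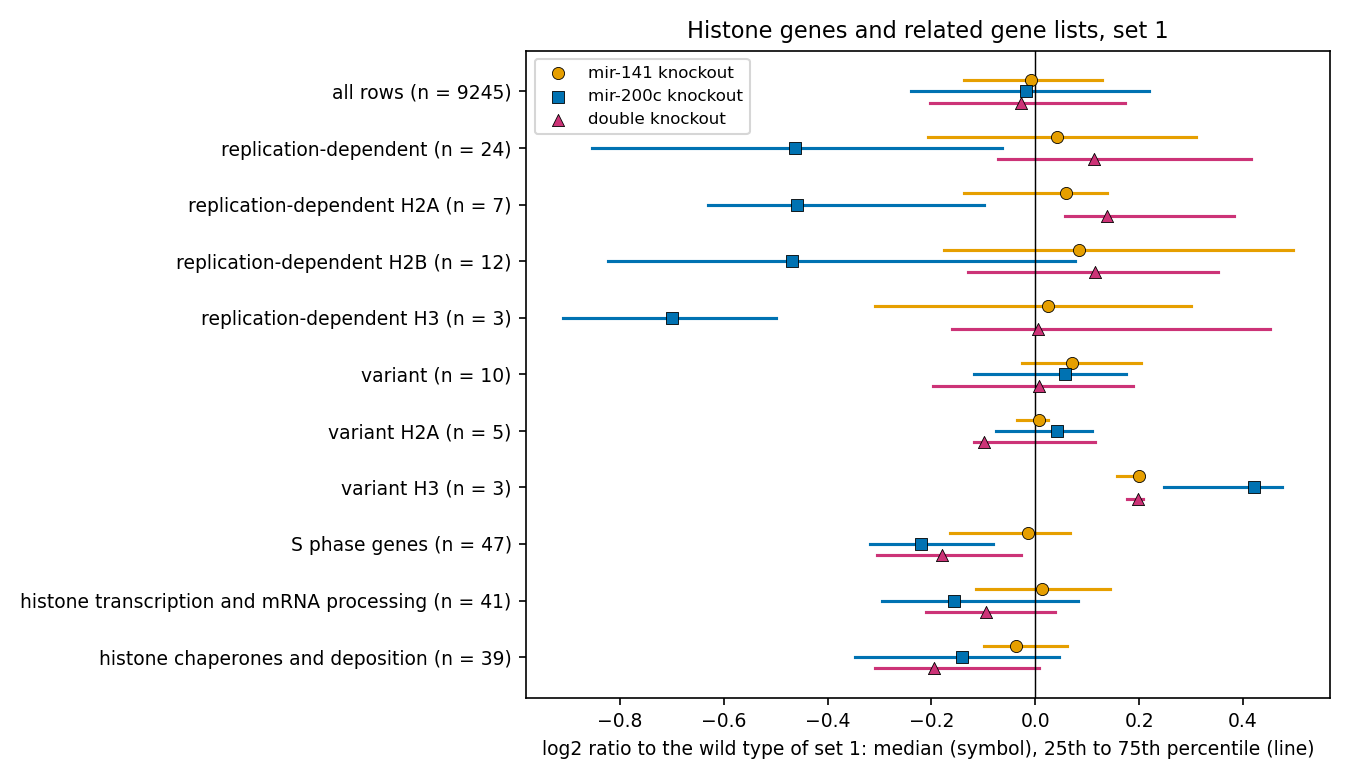
Median log2 ratio to the wild type of set 1 (symbols) with the 25th to 75th percentile (lines) for all rows, the histone classes and families and 3 related gene lists. The replication-dependent H2A, H2B and H3 families lie at −0.46 to −0.70 in the mir-200c knockout, and S phase genes at −0.22 there and −0.18 in the double knockout.

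In set 2, as listed, the replication-dependent genes had medians of −0.13, −0.0025 and −0.08 and the variant genes 0.11, 0.15 and 0.20, beside −0.03, −0.01 and −0.03 for all rows. In the mir-200c knockout 12 of the 24 replication-dependent genes were below 0, against 52.1% of all rows. Of the 24, 9 were lower there than in the mir-141 knockout, with a median difference of 0.07, where 49.5% of all rows were lower. Between the double and the mir-200c knockout 12 were higher and 12 lower, with a median difference of −0.03 (47.4% of all rows were higher). Beyond a log2 ratio of 1 to the wild type there were 0, 1 and 3 of the 24, against 2.48%, 1.77% and 3.34% of all rows. They were HIST2H2BF in the mir-200c knockout and HIST2H2BF, HIST2H2AC and HIST1H2BE (1.34) in the double knockout. The low replication-dependent median of the mir-200c knockout of set 1 was not seen in set 2 as listed. Single genes such as HIST1H3G (−0.47) and HIST1H4H (−0.40) were listed below 0 there. Where set 2 is listed beside the wrong symbols, neither its medians nor these single values bear on the result of set 1.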

How the data were processed

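Per the file headers, the authors deposited log2 ratios of knockout over wild type within a set, for 9245 entries with 9241 distinct symbols. Per the submitters' processing notes, the tools include TopHat2 (no version) and the build GRCh37.p10; the counting, scaling and filtering steps are not given in the sources used here. Library depth is unknown, so no filter on level was possible. Columns of samples outside the series numbered 0.

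Ratios were read as deposited. Over both sets limma 3.58.1 (R 4.3.3) was fitted to all rows with each wild type at 0 and the set as a block, as labelled and built into the ratios (3 residual degrees of freedom), at a Benjamini-Hochberg adjusted p under 0.05. The p-values measure only the spread between these libraries, which differ in clone and set. On simulated data for the mir-141 comparison (9245 genes), 47 of 100 genes changed by a log2 of 1 and 89 of 100 changed by 2 were called, with 7 false calls among 9045.

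All 34 symbols were matched by RefSeq accession to GENCODE release 29 (GRCh38), and promoters of 32 to RefSeq. Shared words are stretches of 50 bases also present in a transcript of another gene. All ratios were given for every histone gene beyond 1 in set 1, for the 3 variants with the highest and the 3 with the lowest mean over set 1, and set 1 ratios for those beyond 1.5-fold; of each list, the 2 highest and 2 lowest by their mean over set 1 were named. The other histone genes were added after their values were seen. The members and lists were chosen with earlier results of these data known.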

Additional observations from a re-analysis of the deposited data

Results flagged for a closer look

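The 2 linker histone variants H1F0 and H1FX were singled out because their median lay below 0 in every clone of set 1 and above 0 in every clone of set 2. With the knockouts in the order mir-141, mir-200c, double, it was −0.0216, −0.65 and −0.57 in set 1, and set 2 listed 0.24, 0.0922 and 0.12. H1FX by itself was above 0 in the mir-141 knockout of set 1 (0.28). The difference between the sets was not tested, and each set shares 1 wild type.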

How the results depend on the processing

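Limma called 0 histone genes in each knockout also with the 6 ratios as independent values and no replicate block, after centring on the median and with a robust prior. Leaving out 1 library at a time gave 0 in the mir-141 and double knockout and 0 to 1 in the mir-200c knockout, where HIST1H2BH was called without the mir-200c clone of set 2. Centring each column on its median changed no count of set 1 and left the medians on the same side of 0. With means in place of medians the replication-dependent genes had 0.16 in the mir-141 and 0.26 in the double knockout (0.04 and 0.11 as medians), and the variant genes had −0.046 in the mir-200c and −0.08 in the double knockout, where the medians were above 0 (0.06 and 0.01). Counts of replication-dependent genes past a 1.5-fold limit were 7, 11 and 7 and past a 4-fold limit 1, 2 and 1 (mir-141, mir-200c, double), against 3, 7 and 4 past 2-fold. With the clones of set 2 as listed, 0, 1 and 3 were past 2-fold, and the medians were −0.13, −0.0025 and −0.0822 (replication-dependent) and 0.11, 0.15 and 0.20 (variant). The cause of these shifts was not tested. In an alternative chosen after seeing the data, leaving out the 5 genes with most of their words shared, 3 genes were past 2-fold in the mir-200c knockout and the median was −0.41; without genes that overlap another gene it was −0.58. Dropping genes with identical proteins was not run, and no filter on level could be tried. The unknown depth limits every ratio of a gene with few reads.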
